A study of Mus musculus with 4 samples.

Results

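Loss of the chemokine receptor gene Ccr2 was examined in the quadriceps of dystrophic mice by comparing 2 single-cell RNA libraries, one from mdx5cv/Ccr2-/- mice and one from mdx5cv mice. Both groups were 14 weeks old and both carried the mdx5cv mutation, so neither had intact dystrophin and there was no muscle without dystrophy among them. Barcodes with at least 500 UMIs (unique molecular identifiers, 1 for each captured RNA molecule), at least 300 detected genes and no more than 15% of UMIs from mitochondrial genes entered the comparison. This left 5238 barcodes of the mdx5cv library and 6811 of the mdx5cv/Ccr2-/- library, 12049 of the 31077 in the series. The other 19028 barcodes came from the diaphragm of mice with the same genotypes, and their values are given only beside those of the quadriceps. The cells were described by the submitters as mononuclear and were processed with the 10x Genomics 3′ chemistry, in which a UMI marks the 3′ end of an RNA. The sources used here do not give the number of mice behind a library, their genetic background or the deleted part of Ccr2.

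Ccr2 encodes a receptor by which classical monocytes leave the bone marrow and enter inflamed tissue, and its ligands are the chemokines encoded by Ccl2, Ccl7, Ccl8 and Ccl12. In muscle without dystrophin, fibres break down and are rebuilt over and over, and the monocytes that enter become macrophages which signal to fibro-adipogenic progenitors (FAPs), the main source of scar matrix, and to muscle stem cells, the source of new fibres. The mdx5cv allele is a point mutation in the dystrophin gene and models Duchenne muscular dystrophy.

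There was 1 library for each genotype, so no difference below has a replicate check, and cells are not replicates. Levels are CPM, counts per 1000000 UMIs of the class, and a ratio is the CPM of the mdx5cv/Ccr2-/- library over that of the mdx5cv library. The 95% intervals are exact and cover counting error only, not the spread between mice, dissections or libraries. Those of gene ratios treat each UMI as independent, so they leave out the spread between cells as well. They are too narrow where a few cells hold most UMIs of a gene. A gene was measured with a mean of at least 20 CPM and at least 50 UMIs, and was called higher or lower where its ratio was at least 1.5-fold and its interval left out 1. The libraries held 54992369 and 64967156 UMIs in the barcodes kept, with a median of 8216 and 6829 UMIs for each barcode. They shared 12 barcodes, 0.206% of the smaller library, and the highest doublet scores were removed, which left 4965 and 6362 cells. In every list of values below the mdx5cv library comes first. A class ending in -like was named from RNA markers alone, and where a class holds several clusters a different mix of cells and a different level in each cell cannot be told apart. The median gene was shifted by a log2 ratio of 0.08 over all cells, 0.06 in phagocytes, 0.11 in macrophage-like cells and 0.13 in type 2 dendritic-like cells, and single genes can be read against these.

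Ccr2 itself lies at chr9:124101950-124113557 on the plus strand of mm10 and was the check of the labels. Over all barcodes it stood at 248 CPM in the mdx5cv library, from 13630 UMIs, and at 15.3 CPM in the mdx5cv/Ccr2-/- library, from 992 UMIs (ratio 0.0616, 0.0577 to 0.0657). The library labelled as lacking Ccr2 therefore held 16.2-fold less of its RNA but was not free of it. Where in the gene these 992 UMIs lie is not recorded in the count matrices, so a UMI does not show an intact message. Classical monocyte-like cells went from 693 to 30.5 CPM (0.0439, 0.0378 to 0.0508) and macrophage-like cells from 434 to 50.4 CPM (0.116, 0.103 to 0.131). Dendritic-like cells kept more of it. Type 2 conventional dendritic-like cells (cDC2) went from 799 to 152 CPM (0.190, 0.167 to 0.215), and type 1 cells (cDC1) from 512 to 113 CPM (0.220, 0.170 to 0.282). The intervals of the monocyte-like and cDC2-like ratios do not overlap, but they leave out the spread between cells. Whether the classes differ was not tested. Classical monocyte markers of the monocyte-like class summed to 1635 and 305 CPM and its macrophage markers to 8554 and 10201 CPM. The part of this in its Ccr2 ratio was not tested. With each cell thinned to 2000 UMIs, 52.0% of phagocytes and 63.4% of cDC2-like cells of the mdx5cv library had a Ccr2 UMI, against 5.56% and 23.2% without Ccr2. FAP/fibroblast-like cells, which should lack the gene, had one in 0.526% of cells of the mdx5cv library at this depth, and in 2.94% and 0.145% of cells without thinning. Median depths before thinning were 11354.5 and 11694 UMIs in the phagocytes kept, 98 and 35 shallower phagocytes were left out, and without thinning the shares were 68.0% and 16.7%. Of 140 genes within 5 Mb of Ccr2, 27 were measured over all cells, and 0 were called higher and 2 lower, where 4.32% and 4.97% of all 6363 genes measured were. In phagocytes 24 of them were measured, 1 called higher and 2 lower, where 3.92% and 3.66% of all 5407 genes measured were.

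**Figure D1:**
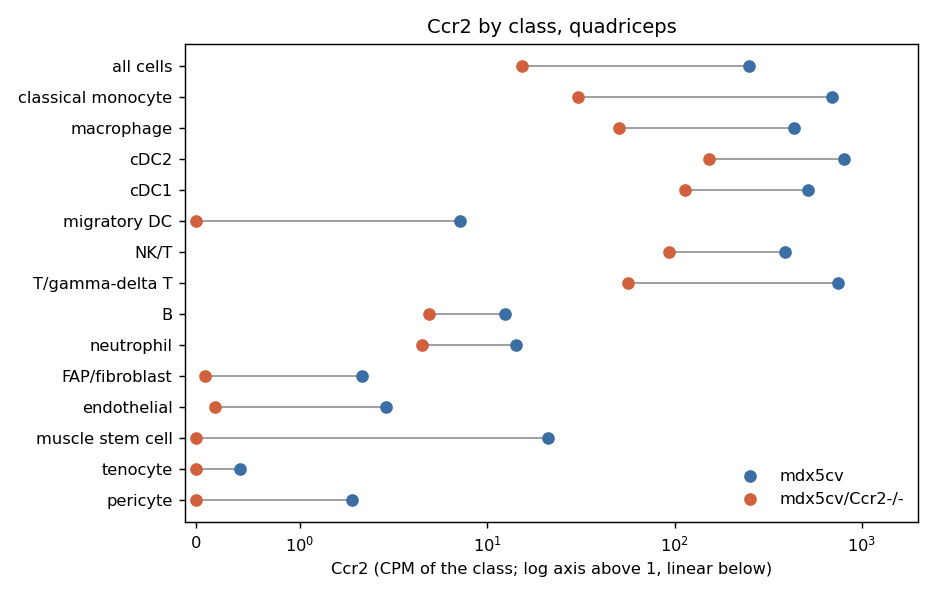
Ccr2 level in CPM (horizontal axis, logarithmic above 1 and linear below) in all barcodes and in single classes of the 2 quadriceps libraries, with 1 point for each library and no error bars since there was 1 library for each genotype. The points of the mdx5cv/Ccr2-/- library lie to the left in all cells (15.3 against 248 CPM), and cDC2-like cells have the highest point of that library (152 CPM).

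The library without Ccr2 held fewer phagocytes and larger shares of vessel and muscle stem cells. Phagocytes, meaning macrophage-like and classical monocyte-like cells pooled, made up 29.8% of the mdx5cv cells (1482 cells) and 13.8% of the mdx5cv/Ccr2-/- cells (881 cells), a ratio of 0.464 (0.426 to 0.505). Endothelial-like cells went from 22.6% to 30.1% (1.33, 1.24 to 1.44), muscle stem cell-like cells from 3.44% to 5.38% (1.56, 1.30 to 1.89), and pericyte-like cells, which wrap small vessels, from 2.64% to 4.01%. FAP/fibroblast-like cells were 19.8% and 21.7% of cells (1.09, 1.01 to 1.19). A further 301 and 451 cells lay in clusters left unnamed, whose best match was endothelial, and they enter no class share. Shares sum to 100%, so a lower share of phagocytes moves the others, and no share gives a cell number in the muscle. Clustering without any gene that was called between the libraries, an alternative chosen after seeing the data, gave 30.2% and 14.1% for phagocytes, 24.3% and 33.8% for endothelial-like cells and 3.44% and 5.36% for muscle stem cell-like cells. The FAP/fibroblast-like ratio was 0.888 with stricter limits on barcodes and 0.899 without doublet removal, so its direction is not settled here. In both of these clusterings the cluster led by Ptn was not named as FAP/fibroblast-like, with 49 and 487 cells in the first and 71 and 556 in the second.

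**Figure D2:**
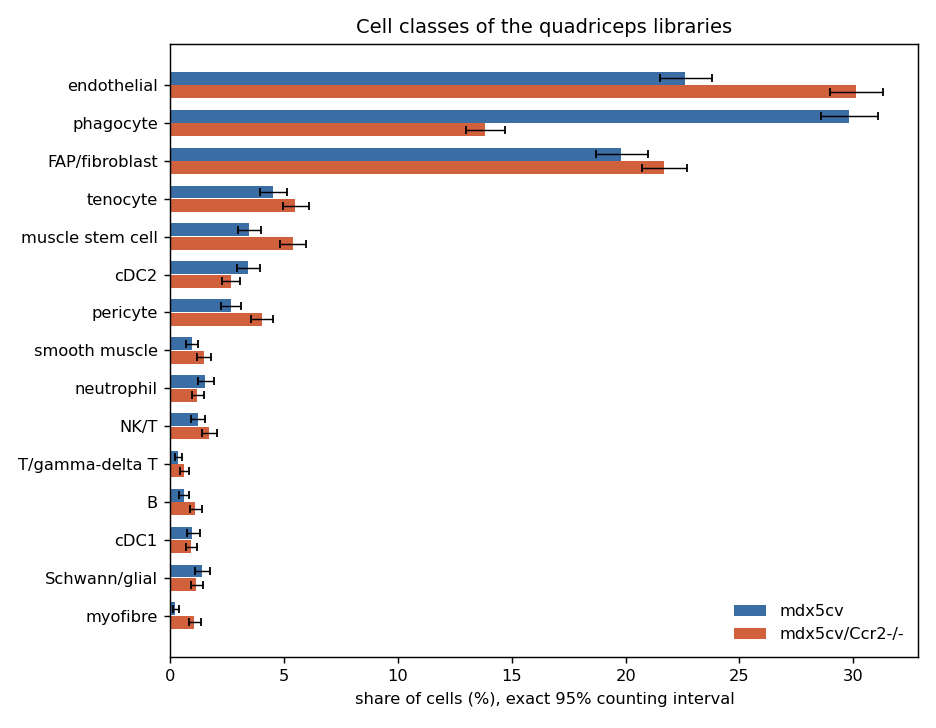
Share of cells (%) in each class for the 2 quadriceps libraries, as bars from 0 with exact 95% counting intervals; 1 library stands behind each bar. The phagocyte bars (29.8% and 13.8%) and the endothelial bars (22.6% and 30.1%) lie apart, and the FAP/fibroblast bars (19.8% and 21.7%) nearly touch.

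Over all barcodes, with no clustering involved, the library without Ccr2 held more matrix RNA and less RNA of the Ccr2 ligands. Of the 18 fibrillar and other collagen genes listed, 13 were called higher and 0 lower, with a median log2 ratio of 0.75, beside 4.32% and 4.97% of all genes measured. Col1a1, a chain of type I collagen, stood at 2898 and 5465 CPM (1.89, 1.87 to 1.90), and Postn, which encodes the matrix protein periostin, at 897 and 2394 CPM (2.67, 2.64 to 2.70). Of the 4 ligand genes 3 were called lower. Ccl2, the main ligand, stood at 386 and 123 CPM (0.320, 0.312 to 0.328), Ccl7 at 227 and 72.5 CPM (0.319, 0.309 to 0.330), and Ccl12 at 44.8 and 22.7 CPM (0.508, 0.476 to 0.542). Ccl8 was not called, with 155 and 116 CPM (0.746, 0.723 to 0.769). In the diaphragm the ratio of Ccl2 was 0.897 and that of Col1a1 was 1.32, and whether the muscles differ was not tested. The summed level of 10 FAP/fibroblast markers was 11933 and 17295 CPM over all barcodes, and that of 13 macrophage markers was 4529 and 3088 CPM. The part of these cell mixes in the ratios over all barcodes was not tested.

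Ccl2 RNA came from 2 kinds of cell, and both held less of it. FAP/fibroblast-like cells held 47.6% of the Ccl2 UMIs in the mdx5cv library and 49.9% in the mdx5cv/Ccr2-/- library, and phagocytes held 50.7% and 44.0%. In phagocytes Ccl2 stood at 562 and 277 CPM (0.492, 0.473 to 0.512), and in FAP/fibroblast-like cells at 611 and 168 CPM (0.276, 0.265 to 0.286). Ccl7 was shared between the classes in the same way, with 49.7% and 53.8% of its UMIs in FAP/fibroblast-like cells. Ccl12 was almost all in phagocytes, which held 98.8% and 97.8% of its UMIs, and its level within phagocytes was 128 and 116 CPM (0.908, 0.848 to 0.971), so Ccl12 was lower over all barcodes but not called within phagocytes.

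In FAP/fibroblast-like cells matrix genes were higher and chemokine and sterol genes lower without Ccr2. Of 5860 genes measured in them, 3.60% were called higher and 3.48% lower. Different clusters hold most of the class in the 2 libraries. The cluster led by Ptn, H19 and Cthrc1 held 24.8% of the class in the mdx5cv library and 64.5% without Ccr2, the cluster led by Timp1, Aldh1a3 and Ccl2 held 31.1% and 13.9%, and the cluster led by Col6a5, Penk and Gdf10 held 26.1% and 9.41%. Genes that define these clusters are among those that differ, so their sizes are not read as a result. When genes called between the libraries were kept out of clustering, cells named as activated fibroblasts made up 6.87% and 8.58% of the libraries.

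Matrix genes were higher in FAP/fibroblast-like cells without Ccr2. Of 18 collagen genes 8 were called higher and 0 lower (median log2 ratio 0.55), and of 24 matrix glycoprotein genes 6 were called higher and 1 lower (median 0.35), beside a median of 0.04 over all genes measured in the class. Col12a1, a collagen that sits on the surface of fibrils, stood at 123 and 502 CPM (4.08, 3.88 to 4.28). Col11a1, which helps start fibrils, stood at 8.89 and 98.6 CPM (11.1, 9.35 to 13.3), and Col5a1, which limits fibril width, at 906 and 1458 CPM (1.61, 1.58 to 1.64). The basement membrane chain Col4a1 was not called and stood at 992 and 858 CPM (0.865, 0.847 to 0.884). Fn1, fibronectin, stood at 1655 and 3065 CPM (1.85, 1.83 to 1.88), and Thbs1, a matrix protein that can activate TGF-beta, at 91.0 and 208 CPM (2.29, 2.16 to 2.43). Tnxb, the tenascin of loose connective tissue, was the glycoprotein gene called lower, with 383 and 220 CPM (0.574, 0.553 to 0.597). The growth factor genes Igf1 (595 and 992 CPM, 1.67, 1.63 to 1.71) and Igf2 (33.0 and 102 CPM, 3.09, 2.81 to 3.40) were also called higher. The heparin-binding growth factor gene Ptn had one of the largest ratios of the class, with 163 and 1271 CPM (7.78, 7.48 to 8.11), but it leads a cluster of the class.

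The collagen genes were also compared inside single clusters of the class. Inside the cluster led by Ptn, H19 and Cthrc1, 2 of 18 were called higher and 1 lower, where 1.55% of all genes measured were called higher and 2.24% lower. There Col1a1 stood at 13989 and 14991 CPM (1.07, 1.06 to 1.08), whereas Col12a1 stood at 234 and 635 CPM (2.72, 2.56 to 2.89) and Col11a1 at 14.4 and 128 CPM (8.85, 6.97 to 11.4). Inside the cluster led by Timp1, Aldh1a3 and Ccl2, 9 of 17 collagen genes were called higher and 0 lower, beside 5.87% and 2.64% of all genes measured, and Col1a1 stood at 4382 and 7285 CPM (1.66, 1.63 to 1.69). Col12a1 was thus higher inside both of these clusters, and Col1a1 was called in the second of them. Inside the cluster led by Col6a5, Penk and Gdf10 Col12a1 was not called (1.08, 0.834 to 1.38). Nor was it inside those led by Sema3c, Pcolce2 and Efemp1 (1.07, 0.723 to 1.58) and Sfrp2, Htra3 and Mfap4 (1.48, 0.776 to 2.89). In that order 1 of 18, 1 of 17 and 0 of 15 collagen genes were called higher and 0 lower. Of all genes measured there 5.20%, 6.39% and 6.71% were called higher and 2.03%, 2.68% and 1.43% lower. Whether the clusters differ was not tested. At 2000 UMIs for each cell, Col12a1 was seen in 14.0% and 37.1% of FAP/fibroblast-like cells, beside 0.520% and 1.32% of endothelial-like cells. The FAP/fibroblast-like cells thinned numbered 950 and 1325, had medians of 13911.5 and 14983 UMIs, and 35 and 56 shallower cells were left out. Without thinning Col12a1 was seen in 46.1% and 69.2% of FAP/fibroblast-like cells.

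Chemokine genes were lower in the same class. Of the 10 measured chemokine genes that do not bind Ccr2, 6 were called lower and 1 higher, with a median log2 ratio of -0.77. The neutrophil attractant Cxcl5 had the lowest ratio, with 201 and 4.79 CPM (0.0238, 0.0194 to 0.0289), and its UMIs were in 124 of 985 and 31 of 1381 cells. Cxcl1, another neutrophil attractant, stood at 110 and 14.9 CPM (0.135, 0.120 to 0.153), and the eosinophil attractant Ccl11 at 214 and 73.4 CPM (0.343, 0.323 to 0.364). Cx3cl1, the ligand of the receptor on patrolling monocytes, was the gene called higher, with 15.4 and 25.1 CPM (1.63, 1.40 to 1.90), and Cxcl12, which holds stem cells in their niche, was level at 450 and 439 CPM (0.976, 0.947 to 1.01). In the diaphragm the ratio of Cxcl5 was 1.21 and that of Ccl11 was 1.22.

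In the mdx5cv library most Ccl2, Cxcl5 and Cxcl1 UMIs of the class lay in the cluster led by Timp1, Aldh1a3 and Ccl2. This cluster numbered 306 and 192 cells. Inside it Ccl2 stood at 1447 and 1050 CPM (0.726, 0.697 to 0.756) and was not called, but Cxcl5 stood at 498 and 26.9 CPM (0.0541, 0.0430 to 0.0673) and Cxcl1 at 256 and 45.4 CPM (0.177, 0.148 to 0.211). Without that cluster, a choice made after seeing the data, the class held 48.4 and 24.0 CPM of Ccl2 (0.497, 0.435 to 0.567) and 1.90 and 1.17 CPM of Cxcl5 (0.615, 0.315 to 1.22). Ccl11 was not called inside that cluster, with 249 and 204 CPM (0.821, 0.747 to 0.901). In the class without that cluster Ccl11 was called lower, with 190 and 52.0 CPM (0.273, 0.252 to 0.295). Some other clusterings left such a cluster outside the class, and then the class showed Ccl2 or Cxcl5 level or higher. With each library clustered alone, a cluster led by Cxcl5, Ptx3 and Cxcl1 (219 cells) fell outside the class in the mdx5cv library and none did in the other, so that setting compares unlike cells. The lower values over all barcodes do not use the clustering, and Cxcl5 stood there at 65.2 and 1.97 CPM (0.0302, 0.0251 to 0.0360). Of the Cxcl5 UMIs 98.0% and 98.1% lay in FAP/fibroblast-like cells. For Ccl2 the value over all barcodes is no measure of this class alone, since phagocytes held 50.7% and 44.0% of its UMIs.

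Genes of the sterol synthesis list were lower together in FAP/fibroblast-like cells. These genes are switched on by the factor SREBP2 when a cell is short of cholesterol. Of 10 measured, 9 were called lower and 0 higher (median log2 ratio -1.30). Idi1, which makes an isoprenoid building block, stood at 90.0 and 24.3 CPM (0.270, 0.244 to 0.298), and Sqle, which makes squalene epoxide, at 52.1 and 14.4 CPM (0.276, 0.241 to 0.314). The same direction was seen inside the cluster led by Timp1, Aldh1a3 and Ccl2, where 10 of 14 were called lower, and inside that led by Col6a5, Penk and Gdf10, where 8 of 9 were and 5.20% of all genes measured were called higher and 2.03% lower. Inside the cluster led by Ptn, H19 and Cthrc1 5 were measured and 0 called (median -0.27). Inside that led by Sema3c, Pcolce2 and Efemp1, 1 of 10 was called lower and 0 higher (median -0.17). Of all genes measured there 2.68% were called lower and 6.39% higher. Inside that led by Sfrp2, Htra3 and Mfap4, 0 sterol genes were measured. Over all barcodes 7 of 10 sterol genes were called lower and 0 higher (median -0.74), and in the diaphragm the median in the class was -0.45 over 6 genes.

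Other secreted products of these cells were lower too. Prg4, the lubricating proteoglycan, stood at 874 and 264 CPM (0.303, 0.293 to 0.312), and Fst, which encodes follistatin, a blocker of myostatin and activins, at 197 and 58.6 CPM (0.297, 0.278 to 0.317). Inside single clusters Prg4 was called lower in those led by Ptn (0.414) and Col6a5 (0.575). It was not called in those led by Timp1 (0.694), Sfrp2 (1.15) and Sema3c (1.22). Il33, an alarmin that supports regulatory T cells in muscle, stood at 175 and 90.3 CPM (0.516, 0.487 to 0.547). Among 9 complement genes 4 were called lower and 0 higher in the class, but single clusters differed in direction. Inside the cluster led by Ptn, H19 and Cthrc1 5 were called lower and 0 higher (median log2 ratio -0.59), and inside that led by Timp1, Aldh1a3 and Ccl2 3 were called higher and 0 lower (median 0.50). C3, the central complement protein, stood at 622 and 242 CPM (0.390, 0.377 to 0.403). Of 8 measured glucocorticoid targets and metallothioneins 4 were called lower and 0 higher, among them the metal-binding Mt2 at 892 and 266 CPM (0.298, 0.289 to 0.307). Inside single clusters Mt2 was called lower in those led by Col6a5 (0.303) and Sema3c (0.463). It was not called in those led by Ptn (0.810), Timp1 (0.788) and Sfrp2 (1.04). Of 10 cell cycle genes measured 6 were called higher and 0 lower, and Mki67, present in dividing cells, stood at 19.7 and 56.6 CPM (2.87, 2.53 to 3.26). With only Ccr2 kept out of clustering the cell cycle median of the class, 0.84, became -0.09. In that clustering a cluster led by Hist1h1b, Mki67 and Top2a, with 58 and 151 cells, was named cDC1 and lay outside the class. The sums of 10 FAP/fibroblast markers were 33439 and 41486 CPM in the class, and Pdgfra, the receptor by which FAPs are sorted, stood at 523 and 306 CPM (0.584, 0.566 to 0.603).

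**Figure D3:**
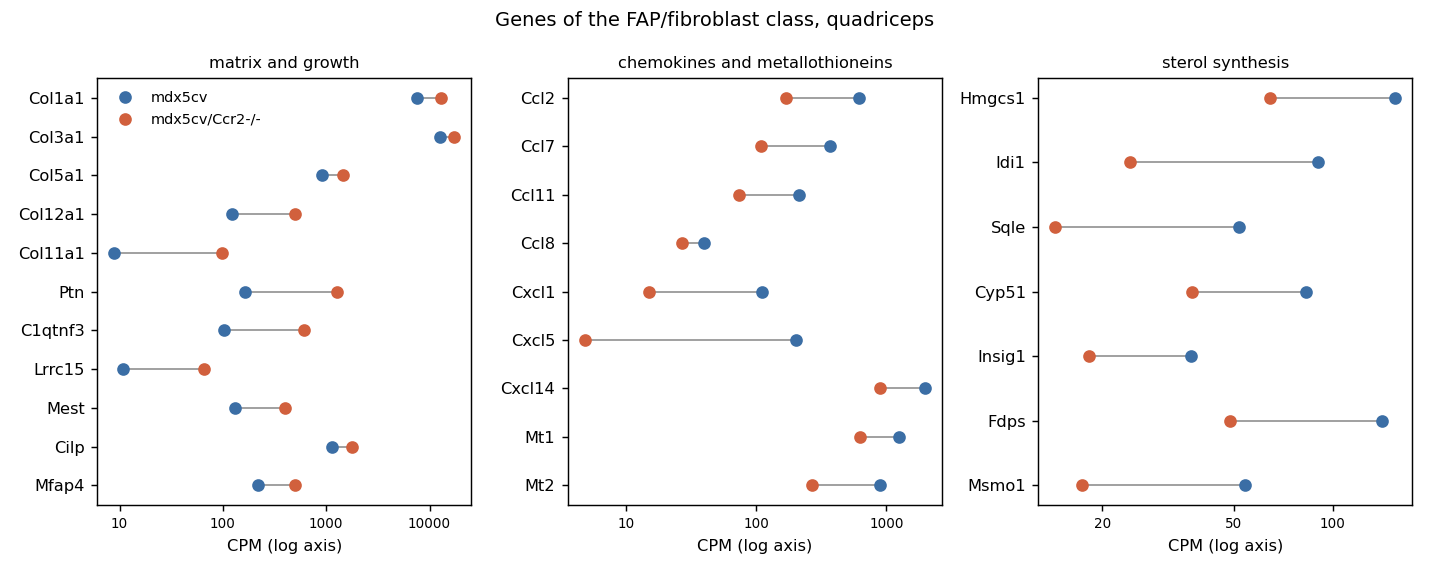
Levels in CPM (logarithmic axes) of matrix, growth factor, chemokine, metallothionein and sterol genes in FAP/fibroblast-like cells, with 1 point for each quadriceps library and a grey line joining the pair. Col11a1 (8.89 and 98.6 CPM) and Col12a1 (123 and 502 CPM) lie higher without Ccr2 and Cxcl5 (201 and 4.79 CPM) and Idi1 (90.0 and 24.3 CPM) lower.

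The phagocytes that remained held less RNA of monocyte and interferon genes. Of 5407 genes measured in the phagocyte pool, 3.92% were called higher and 3.66% lower. Ly6c2, the antigen by which inflammatory monocytes are sorted, stood at 159 and 12.2 CPM (0.0765, 0.0642 to 0.0905), and Plac8, a gene of blood monocytes, at 310 and 39.7 CPM (0.128, 0.116 to 0.141). Of 13 measured genes of the inflammatory monocyte list 9 were called lower and 0 higher. Ccr1, a receptor for other inflammatory chemokines, was among the 2 of 10 listed receptors called lower, with 90.9 and 24.2 CPM (0.266, 0.234 to 0.302), and Csf1r, the receptor for the macrophage growth factor, was level at 477 and 493 CPM (ratio 1.03). The pool held 913 and 356 monocyte-like cells and 569 and 525 macrophage-like cells. The sum of 10 monocyte markers was 1041 and 179 CPM in the pool and that of 13 macrophage markers 12371 and 14945 CPM, and the part of this mix in the pool's ratios was not tested. The monocyte-like class itself held less of its own markers, whose sum was 1635 and 305 CPM with 8 of 9 called lower, and at equal depth Ly6c2 was seen in 26.5% and 3.34% of its cells. Its macrophage markers summed to 8554 and 10201 CPM, so in the mdx5cv/Ccr2-/- library its markers go against its name. With the quadriceps clustered without the diaphragm, 615 and 98 cells were monocyte-like, and a cluster led by Mmp12, Spp1 and Lgals3 with 261 and 206 cells was macrophage-like.

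Of 26 type I interferon response genes measured in phagocytes, 22 were called lower and 0 higher (median log2 ratio -1.03). Isg15, a ubiquitin-like antiviral protein, stood at 153 and 41.6 CPM (0.272, 0.246 to 0.299), Ifit3, which binds viral RNA, at 67.7 and 16.8 CPM (0.248, 0.212 to 0.288), and Irf7, the factor that amplifies the response, at 104 and 33.4 CPM (0.322, 0.288 to 0.359). The direction was the same in each part of the pool. In macrophage-like cells, where 3.34% of 5303 genes were called higher and 2.09% lower, 16 of 26 were called lower and 0 higher, and Isg15 stood at 104 and 29.2 CPM (0.280, 0.236 to 0.332). In classical monocyte-like cells, where 7.08% of 5399 genes were called higher and 7.74% lower, 26 of 27 were called lower (median -1.14). At equal depth Irf7 was seen in 17.3% and 5.91% of phagocytes, beside 2.63% and 3.17% of FAP/fibroblast-like cells. Isg15 was seen in 20.4% and 6.62% of phagocytes, beside 8.95% and 9.21% of FAP/fibroblast-like cells. Of the list 20 genes were measured in FAP/fibroblast-like cells too, so their shares are no measure of background for these genes. There 5 were called lower and 0 higher (median -0.34), beside 3.48% and 3.60% of all genes measured. Inside the clusters led by Ptn and Col6a5 12 of 21 and 12 of 22 were called lower, beside 2.24% and 2.03% of all genes. Inside those led by Timp1, Sema3c and Sfrp2 it was 1 of 19, 2 of 20 and 0 of 5, beside 2.64%, 2.68% and 1.43%. The Sema3c cluster also had 2 called higher, where 6.39% of all genes were, and the others 0.

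Promoter sequence of the interferon list is shown because these genes moved together in phagocytes. The search was for GAAANNGAA or its reverse complement TTCNNTTTC, the core of the element bound by interferon regulatory factors, on both strands of the 300 bases from 250 before to 50 after each start site, in RefSeq sequence of GRCm38.p6. Of 35 listed genes 25 had an entry, and 17 of these (68.0%) held the letters. Among those called lower in phagocytes 12 of 18 did (66.7%), and among all 27025 genes with a promoter entry the share was 9.76% (2638 genes). A match is a run of letters and not a bound site. The 30-base stretches below surround the first match of 3 of the genes called lower, 5′ to 3′ on the strand of the gene, with the matching letters in capitals; the gene's own start site lies downstream.
Isg15, chr4:156200873-156200902, minus strand: ccgtagGAAAAGGAAACCGAAACAGAAaat
Ifit1, chr19:34640774-34640803, plus strand: gcaggcTTCAGTTTCACTTTCcagtctcag
Rsad2, chr12:26456548-26456577, minus strand: ccaactTTCATTTTCagaaaacagaaactc
Isg15, whose matches overlap in a row, had a phagocyte ratio of 0.272, and Rsad2, whose stretch has a single match and which encodes the antiviral enzyme viperin, stood at 102 and 38.5 CPM (0.377, 0.339 to 0.418). Irf7, Ifit2 and Oasl2 had no match in this window.

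Genes of matrix breakdown and division were higher in phagocytes. Mmp12, the macrophage elastase, stood at 329 and 1055 CPM (3.21, 3.11 to 3.31), Ctsk, a collagen-cutting protease best known from osteoclasts, at 41.8 and 236 CPM (5.63, 5.20 to 6.11), and Acp5, the osteoclast phosphatase, at 105 and 285 CPM (2.71, 2.56 to 2.87). At equal depth Mmp12 was seen in 7.73% and 21.4% of phagocytes, beside 0.211% and 0.151% of FAP/fibroblast-like cells. The class named monocyte-like, whose monocyte markers summed to 305 CPM without Ccr2, held 5626 of 6037 and 11486 of 12397 Mmp12 UMIs of the pool. There Mmp12 stood at 526 and 1891 CPM (3.60, 3.49 to 3.72) and Ctsk at 55.1 and 396 CPM (7.19, 6.57 to 7.88). In macrophage-like cells Mmp12 stood at 53.7 and 160 CPM (2.99, 2.66 to 3.36). In the diaphragm pool the ratio of Mmp12 was 0.976 and that of Ctsk 0.524, and a difference between the muscles was not tested. Of 15 cell cycle genes measured in the pool 10 were called higher and 0 lower (median 0.95), with Mki67 at 44.8 and 121 CPM (2.69, 2.47 to 2.93). Mki67 stood at 47.6 and 192 CPM in monocyte-like cells and, not called, at 40.9 and 43.8 CPM in macrophage-like cells (1.07, 0.904 to 1.27). This split of Mki67 rests on the same class name. With only Ccr2 kept out of clustering the cell cycle median of the pool was -0.02. There the cluster led by Hist1h1b, Mki67 and Top2a (58 and 151 cells) was named cDC1 and lay outside the pool. The part of this in the median was not tested.

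Dendritic-like cells of the cDC2 type, which present antigen to helper T cells, differed in 10.3% of 5171 measured genes called higher and 3.67% called lower, from 169 and 168 cells. Of 27 type I interferon genes 20 were called lower and 0 higher (median -0.97), and Isg15 stood at 264 and 73.6 CPM (0.278, 0.230 to 0.336). Of 23 cell cycle genes 16 were called higher and 0 lower. Ccl17, a chemokine that draws T cells bearing Ccr4, stood at 22.6 and 233 CPM (10.3, 7.44 to 14.7), in 9 and 29 cells. Dcstamp, which takes part in cell fusion, stood at 8.69 and 66.1 CPM (7.60, 4.45 to 14.0), in 7 and 33 cells, and Mmp12 at 50.4 and 277 CPM (5.49, 4.37 to 6.97), in 9 and 39 cells. These 3 genes stayed higher without the 5 cells richest in each. The diaphragm ratio of Ccl17 was 13.9. The summed macrophage markers of these cells were 1081 and 596 CPM and their own 8 markers 1684 and 1863 CPM. Classical monocyte markers summed to 1317 and 704 CPM, with 3 of 6 measured called lower, and plasmacytoid dendritic markers to 177 and 387 CPM, with 4 of 6 called higher. The part of these in the ratios was not tested.

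Muscle stem cell-like cells without Ccr2 held more RNA of the differentiation programme. There were 171 and 342 of them, and 3.51% of 5556 genes were called higher and 1.64% lower. Of 16 activation and differentiation genes measured, 9 were called higher and 0 lower (median log2 ratio 0.64). Myog, the factor that commits myoblasts to fuse, stood at 233 and 623 CPM (2.67, 2.41 to 2.97). Mymk, a membrane protein that fuses myoblasts, stood at 16.2 and 43.6 CPM (2.69, 1.81 to 4.13), and its partner Mymx at 88.0 and 136 CPM (1.54, 1.29 to 1.86). Actc1, the actin of young fibres, stood at 8.10 and 160 CPM (19.7, 11.8 to 35.5), in 6 and 25 cells. The stem cell factor Pax7 was level at 225 and 229 CPM (1.02, 0.906 to 1.15), and so was Myod1, which marks activated cells, at 176 and 189 CPM (1.07, 0.935 to 1.23), but both lead the cluster that makes up the class.

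Few cells carried the fusion genes. Myog UMIs were found in 13 of 171 and 47 of 342 cells, and the 5 richest cells held 81.9% and 43.9% of them. Without these cells Myog stood at 46.7 and 365 CPM (7.81, 6.21 to 9.95). Leaving them out took a larger part of the UMIs from the mdx5cv library, so only the direction of this ratio is read. At 2000 UMIs for each cell Myog was seen in 5.70% and 10.9% of cells, and the counting intervals of these shares overlapped. Endothelial-like cells had a Myog UMI in 0.104% and 0.288% of cells, the median depths were 6895 and 6506.5 UMIs, 13 and 40 cells were left out, and without thinning the shares were 7.60% and 13.7%. The 8 markers of committed myoblasts are all members of the activation list, so their sum is no separate result. They summed to 1284 and 2479 CPM in the class, and the 9 markers of the class itself to 2274 and 2237 CPM. At a finer clustering, where committed myoblasts form a cluster of their own and leave the class, the activation median was 0.14, and without the diaphragm libraries it was 0.35. The log2 ratio of Mymk was 0.00 in both of these clusterings.

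Genes of other lists were lower in muscle stem cell-like cells. Immune lists had few measured genes, with both measured Ccr2 ligands called lower (median log2 ratio -2.13) and 2 of 3 interferon-gamma genes (median -1.28), and 1 MHC class II gene was measured, also lower (-2.63). Of 18 immediate early genes, which respond within minutes to stimulation or to tissue dissociation, 4 were called lower and 1 higher (median -0.44). Fosb stood at 162 and 71.9 CPM (0.443, 0.372 to 0.527) and Klf4 at 51.3 and 25.0 CPM (0.487, 0.358 to 0.662). Of 15 quiescence genes 2 were called lower and 0 higher. Of 10 sterol genes 5 were called lower and 0 higher (median -0.51). The neuropeptide gene Gal stood at 505 and 210 CPM (0.415, 0.376 to 0.459). The summed macrophage markers in this class were 221 and 66.4 CPM, and their part in these ratios was not tested.

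**Figure D4:**
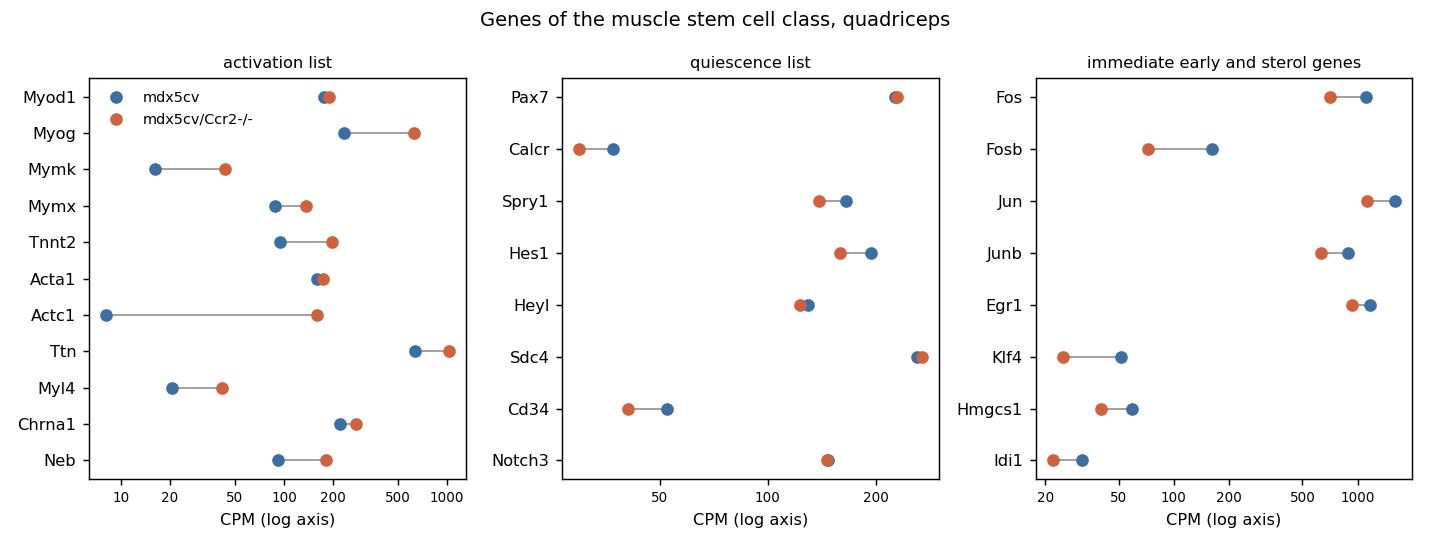
Levels in CPM (logarithmic axes) of activation, quiescence, immediate early and sterol genes in muscle stem cell-like cells, with 1 point for each quadriceps library and a grey line joining the pair. Myog (233 and 623 CPM) and Actc1 (8.10 and 160 CPM) lie higher without Ccr2, Pax7 (225 and 229 CPM) is level, and Fosb (162 and 71.9 CPM) lies lower.

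Tenocyte-like cells, the fibroblasts of tendon, shared the sterol and collagen directions with FAP/fibroblast-like cells. From 224 and 349 cells 5542 genes were measured, of which 3.81% were called higher and 1.71% lower. The cells lay in a cluster led by Chad, Fmod and Cilp2 (194 and 245 cells) and a cluster led by C1qtnf3, Tnmd and Fibin (30 and 104). The part of this mix in the ratios was not tested. Of 10 sterol genes 8 were called lower and 0 higher (median -0.86), with Cyp51, a sterol demethylase, at 80.4 and 27.7 CPM (0.344, 0.266 to 0.444) and Hmgcs1, which starts the pathway, at 135 and 57.4 CPM (0.424, 0.353 to 0.509). Of 18 collagen genes 8 were called higher and 0 lower (median 0.55), and Col3a1, the collagen of young scar, stood at 3195 and 6238 CPM (1.95, 1.90 to 2.01). Col12a1 was not among them. The tendon genes Scx and Tnmd were not called, Scx with 496 and 537 CPM (1.08, 1.01 to 1.17) and Tnmd with 1804 and 1747 CPM (0.968, 0.931 to 1.01). Ccl2 went the other way from FAP/fibroblast-like cells, from 28 UMIs in the mdx5cv library to 215 UMIs, or 63.3 CPM, without Ccr2 (5.26, 3.54 to 8.11). The sum of the FAP/fibroblast markers in these cells was 22372 and 26778 CPM and that of the 8 tenocyte markers 24055 and 19735 CPM, and their part in these ratios was not tested.

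The cells named as endothelial-like differed little in what they expressed. Of 5842 genes measured in 1123 and 1917 cells, 0.736% were called higher and 0.582% lower. Unnamed clusters whose best match was endothelial were not compared, among them that led by Prnd, Apln and Kit with 77 and 208 cells. None of 13 capillary lipid genes and none of 13 genes of leukocyte adhesion was called in either direction. The fatty acid carrier gene Fabp4 was level at 18272 and 18406 CPM (ratio 1.01), and the adhesion molecule gene Vcam1, which holds leukocytes on the vessel wall, at 51.4 and 48.6 CPM (0.946, 0.821 to 1.09). Of 15 interferon-gamma response genes 3 were called lower and 0 higher, all of them guanylate-binding proteins, with Gbp3 at 119 and 54.5 CPM (0.457, 0.410 to 0.511), Gbp5 at 120 and 63.7 CPM (0.529, 0.476 to 0.588) and Gbp7 at 313 and 207 CPM (0.661, 0.622 to 0.703). Alad, an enzyme of haem synthesis, was called higher with 7.69 and 35.4 CPM (4.61, 3.40 to 6.36), and its diaphragm ratio was 3.87. Of 9 collagen genes measured 4 were called higher, and Col3a1 stood at 64.9 and 181 CPM (2.80, 2.51 to 3.12). The sum of the FAP/fibroblast markers in endothelial-like cells was 173 and 423 CPM, a ratio of 2.44, and its part in the collagen ratios was not tested.

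A few genes were called the same way in nearly every class. There were 8 classes with at least 100 cells in both libraries. Gm10076, a gene model with no name, was called higher in 8 of 8 and over all barcodes stood at 268 and 718 CPM, a ratio of 2.68, while its diaphragm ratio was 0.666. Ifi202b was measured in 6 and called higher in all 6. It belongs to the interferon-inducible Ifi200 family of DNA sensors, and its level is known to differ between inbred mouse strains. Over all barcodes Ifi202b had 1 UMI in the mdx5cv library and 6735 in the mdx5cv/Ccr2-/- library, 0.0182 and 104 CPM (5701, 1023 to 225208). At equal depth it was seen in 0 of 950 (exact upper limit 0.388%) and in 29.6% of 1325 FAP/fibroblast-like cells, and the diaphragm ratio was 1520. Other family members went the opposite way in phagocytes, where 5 of 8 measured members were called lower and Ifi202b alone higher. Mndal, another member, was called lower in 6 of 7 classes and over all barcodes stood at 162 and 86.0 CPM, a ratio of 0.532, but in tenocyte-like cells it was called higher (1.93, 1.35 to 2.80). Gbp7 was called lower in 7 of 8 classes, and Ifi27l2a, an interferon-induced gene, also in 7 of 8, the exception being macrophage-like cells (ratio 1.02). The part of the mice's genetic background in these genes was not tested.

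**Figure D5:**
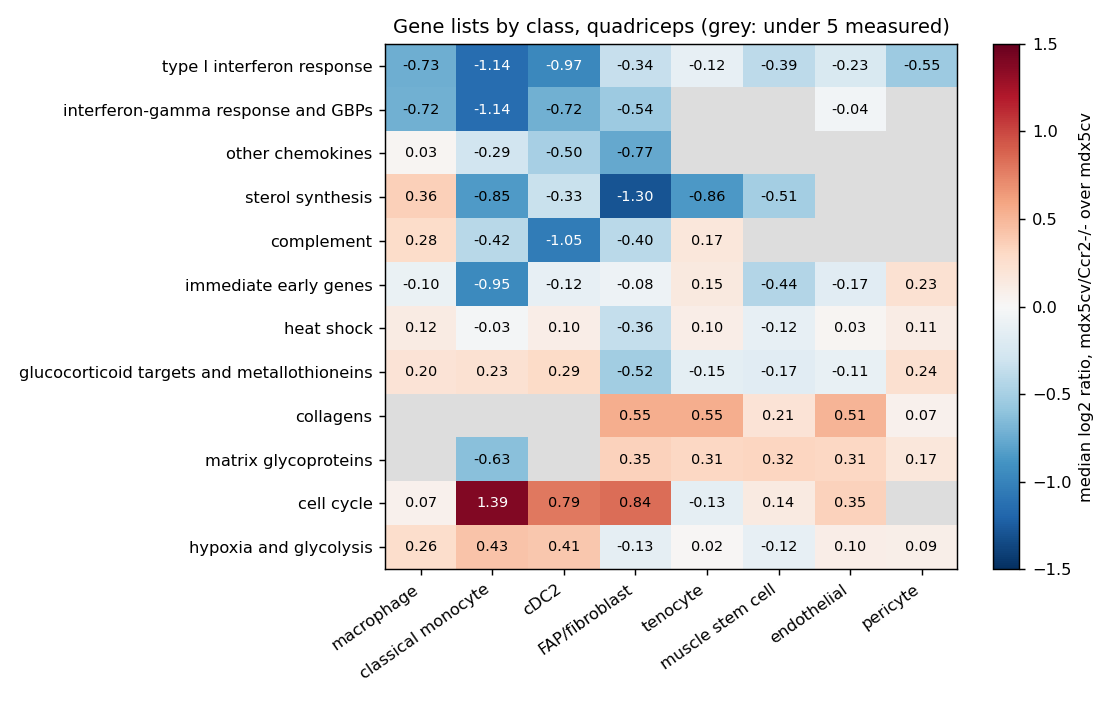
Median log2 ratio (mdx5cv/Ccr2-/- over mdx5cv) of 12 gene lists in 8 classes of the quadriceps, printed in each cell and coloured from blue (lower) to red (higher); grey marks lists with under 5 measured genes in a class. The type I interferon row is lowest in classical monocyte-like cells (-1.14) and the sterol row in FAP/fibroblast-like cells (-1.30).

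Granule genes of neutrophils and fibre genes were higher over all barcodes. The cells that held their UMIs are counted below only for Ngp in phagocytes. Camp, an antimicrobial peptide made by neutrophil precursors, had 3 and 6493 UMIs (0.0546 and 99.9 CPM, ratio 1832, 627 to 8886). Ngp, a granule protein gene of the same stage, had 0 and 4982 UMIs, which is 76.7 CPM without Ccr2. S100a8, which mature neutrophils also make, stood at 108 and 566 CPM (5.23, 5.08 to 5.37). Neutrophil-like cells were no more frequent, with 1.53% and 1.18% of cells (76 and 75 cells). Within phagocytes the summed neutrophil markers were 52.3 and 1162 CPM. There 6 of 881 cells held the 1535 Ngp UMIs, and the 5 richest held 99.9% of them. The fibre gene Mylpf, a fast myosin light chain, stood at 31.7 and 148 CPM (4.67, 4.44 to 4.92), beside 11 and 67 myofibre-like cells. Diaphragm ratios were 0.345 for Camp and 0.388 for Mylpf.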

How the data were processed

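The authors deposited raw UMI counts by gene and barcode, without normalization. Cell Ranger 6.1.2 and mm10 are named in the submitters' processing notes. The sources used here give no annotation release, no setting for introns and no rule for calling cells. The members, gene lists, tests and alternatives were chosen with earlier results of these data known. For doublets, Scrublet as built into scanpy 1.11.5 ranked the barcodes, and the top of each library was removed (273 and 449 of the quadriceps barcodes), a share assumed and not estimated. One joint clustering of the 4 libraries was used (2000 variable genes, 30 components, 15 neighbours, Leiden resolution 1, no integration; 617 genes kept out, Ccr2, mitochondrial and cell cycle genes among them), and 32 clusters were named from fixed markers. Counts were summed by library and class. Class ratios use cells after doublet removal, and values over all barcodes those before it. Ratios carry exact Clopper-Pearson intervals (scipy 1.17.1), and log2 ratios add 5 CPM to both sides. The self-test recovered known folds in counts simulated with independent UMIs, so it does not cover the spread between cells.

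Named genes are the 12 highest and the 12 lowest called ratios of each class, leaving out Ccr2, sex-linked, mitochondrial, haemoglobin and immunoglobulin genes, unnamed models and possible free RNA, together with members of the gene lists and genes called alike in all classes. Of the 32285 gene IDs 32158 matched the GENCODE mouse release 21 annotation, from which coordinates were taken. Python 3.11.15, numpy 2.4.6, pandas 2.3.3, scikit-learn 1.9.0, leidenalg 0.10.2 and matplotlib 3.10.9 were used. With 1 library for each genotype no test was run and no p-value is given. Alternatives changed the limits on barcodes, doublet removal, clustering, scaling, pseudocount, measured-gene limits, fold and depth; those chosen after seeing the data kept called genes out of clustering, left out the 5 cells richest in a gene, or left out 1 fibroblast cluster. Some genes and 1 sequence are not reported here.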

Additional observations from a re-analysis of the deposited data

Results flagged for a closer look

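The activation list of muscle stem cell-like cells had medians of opposite sign in the 2 muscles, the one case among the list medians compared in which both were at least 0.5 away from 0. Its median log2 ratio of mdx5cv/Ccr2-/- over mdx5cv was 0.64 in the quadriceps and -0.72 in the diaphragm. Myog had a ratio of 2.67 in the quadriceps and 0.355 in the diaphragm, and Actc1 had ratios of 19.7 and 0.158. The difference was not tested, since each muscle and genotype had 1 library.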

How the results depend on the processing

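Of 57 genes checked, 48 kept their direction under every setting and 27 also their call; among the other values 314 of 389 stayed the same, 70 moved and 5 reversed. Shares: the FAP/fibroblast-like ratio of 1.09 became 0.888 with at least 1000 UMIs, 500 genes and at most 10% mitochondrial UMIs, 0.899 without doublet removal, 1.41 with each library clustered alone and 1.39 at resolution 2; the endothelial-like ratio of 1.33 became 1.44 alone and 1.52 with only Ccr2 kept out of clustering. With strict limits, doublets kept or resolution 2 the chemokine cluster was unnamed in both libraries, and with strict limits or doublets kept the cluster led by Ptn left the class as well. Alone, a chemokine cluster was unnamed in the mdx5cv library only, so those values compare unlike classes. For strict limits, doublets kept, alone and resolution 2, the class's sterol median of -1.30 became -0.65, -0.67, -0.69 and -0.69, its ligand median of -1.72 became -1.12, 0.03, 0.85 and -0.13, and its collagen median of 0.55 became 0.24, 0.19, 0.28 and 0.31. Without the cluster led by Timp1, Aldh1a3 and Ccl2 they were -0.64, -0.42 and 0.36. Weighting cells equally gave -1.07 (sterol) and -1.45 (ligands), a pseudocount of 20 CPM gave -0.99 and -1.59, and measuring at 5 CPM gave -1.10 (sterol). In the class, Cxcl5 reversed to 0.02, 0.44 and 0.22 (strict limits, doublets kept, alone), Ccl2 to 1.15 alone and 0.00 at resolution 2, and Ccl7 to 0.85 alone. The interferon median of phagocytes, -1.03, became -0.76 at 20 CPM and -1.30 measured at 50 CPM. The activation median of muscle stem cells, 0.64, became 0.35 without the diaphragm and 0.14 at resolution 2; for these the cause was not tested beyond the change in members, and alone the mdx5cv library gave no such class. Cell cycle medians became -0.02 (phagocytes) and -0.09 (FAP/fibroblast-like) with only Ccr2 kept out, where a cluster led by Hist1h1b, Mki67 and Top2a was named cDC1. The MHC class II median of phagocytes, -0.09, became 0.01 alone, 0.05 with only Ccr2 kept out and 0.06 with cells weighted equally. Single genes that reversed or came to 0.00 on the log2 scale were Tnni1 in muscle stem cells (-0.69 without the diaphragm, -0.60 at resolution 2, -0.01 without the 5 richest cells), Gal (0.01 without the diaphragm), Mymk (0.00 without the diaphragm and at resolution 2), Hist1h1b (-0.29 at resolution 2) and, in cDC2-like cells, Retnla (0.39 with called genes kept out) and Cxcl9 (0.00 without the 5 richest cells). Counts of called genes: 275 higher over all barcodes became 179 with median ratio scaling. Measured at 5 CPM, at 50 CPM or with 2-fold, 410 in phagocytes became 1095, 184 and 156, 415 in FAP/fibroblast-like cells 899, 211 and 128, and 286 in muscle stem cells 665, 77 and 58. Those in FAP/fibroblast-like cells were 181 with strict limits and 169 with doublets kept, and those in muscle stem cells 661 with cells weighted equally. The Col12a1 share ratio of 2.65 at 2000 UMIs was 2.11 at 4000. Without the 5 richest cells 294 of 312 named genes kept their call; Ngp in phagocytes, Tnni1 in muscle stem cells and Retnla and Cxcl9 in cDC2-like cells did not. No paired analysis was possible because each group had 1 library. Where no cause is named, the cause was not tested.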
